A study of Arabidopsis thaliana with 4 samples.

Results

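The cellulose synthase (CESA) family of Arabidopsis thaliana has 10 genes, CESA1 to CESA10, and all 10 were found by their locus identifiers among the 27322 genes measured by RNA-seq in shoot apices. The double mutant is labelled mp clv3 and its control clv3. Inflorescence apices were cut from plants 6 weeks old, kept at 22 °C in days of 16 h light, and freed of their older flowers. Stratification, a cold treatment of the seeds, lasted 2 days at 4 °C for both genotypes. MP (MONOPTEROS) is an auxin response factor without which flowers fail to form, and CLV3 is a signalling peptide that keeps the stem cell population small. The growth description gives the alleles of the double mutant as mp319 clv3-7, and in place of the clv3 control it names Col-0. The sample labels give the clv3 genotype for both groups, and which of these descriptions holds for the control could not be settled, so the control is called clv3 here after its label. The labels describe 2 libraries for each genotype, while the values come as 1 column per genotype. The spread between libraries is therefore unknown, no difference has a replicate check, and every interval given here covers counting error only.

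Cellulose is spun at the plasma membrane by rosette complexes that hold different CESA proteins side by side. In growing cells with a primary wall the complex needs CESA1, CESA3 and a CESA6-like subunit, for which CESA2, CESA5, CESA6 and CESA9 can partly replace each other. In xylem and fibre cells, which lay down a thick secondary wall, it needs CESA4, CESA7 and CESA8, and loss of any of these gives collapsed xylem vessels (the irregular xylem phenotype). CESA10 is the closest relative of CESA1, and CESA2, CESA5 and CESA9 also act in the seed coat.

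Secondary wall CESA transcripts stood a little over 2-fold lower in mp clv3 apices than in clv3 apices, while the most abundant primary wall transcripts differed by little. CESA4 fell 2.18-fold, CESA7 2.47-fold and CESA8 2.43-fold. CESA6 fell 1.43-fold and CESA9 1.67-fold, CESA3 fell 1.13-fold, and CESA1 did not pass the threshold. At a false discovery rate (FDR, an adjusted p-value) under 0.05 in the authors' deposited table, 7 of the 10 genes were lower and 2 were higher, beside 46.3% of all genes lower and 26.4% higher. With a difference of at least 2-fold asked for as well, 4 of the 10 were lower (CESA4, CESA7, CESA8 and CESA10) and none was higher, beside 18.5% of all genes lower and 9.33% higher. The 3 secondary wall genes all met the 2-fold rule and none of the 6 primary wall genes did. They sit close to that limit: under quantile normalization the log2 ratios were -0.90 for CESA4, -0.96 for CESA7 and -0.98 for CESA8, and with 1 RPKM added to each level they were -0.92, -0.94 and -0.98 for the same genes, all short of 2-fold. Among genes with at least 100 reads in the higher column, which leaves out CESA10, 15.2% were lower by the FDR and 2-fold rule. By a stricter reading, in which the 95% counting interval of the ratio must exclude 1, 6 of the 10 were lower, 1 was higher and 3 were neither, beside 65.8% of all genes that differed in either direction. Since 72.7% of all genes pass that FDR in 1 direction or the other, passing it alone says little about a member, and the test behind it is not given in the sources used here.

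Before the values, the sequences bear on whether the reads of such close relatives can be told apart. No stretch of 100 bases, the length of a read, in the longest RefSeq transcript of a CESA gene occurs in the transcript of another CESA gene. Coding sequences of CESA1 and CESA10 are 84.0% identical, the CESA6-like genes are between 77.9% and 86.0% identical among themselves, and no other pair of the 45 exceeds 71.9%. The most alike 100 bases of CESA1 and CESA10, coding bases 1235 to 1334 of CESA1 and 1175 to 1274 of CESA10, are shown because CESA10 has so few reads beside CESA1. Capitals mark the 5 bases that differ.
CESA1: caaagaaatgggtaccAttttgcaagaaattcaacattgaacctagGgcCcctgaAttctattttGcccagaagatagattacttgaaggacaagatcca
CESA10: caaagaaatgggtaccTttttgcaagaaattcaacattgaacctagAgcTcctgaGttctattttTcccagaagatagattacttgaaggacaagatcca
A read of the whole stretch with no sequencing error therefore matches its own gene in 5 more bases than the other. How reads that match several genes were treated is not given in the sources used here.

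Overlap with neighbouring genes was short for most members. RefSeq gene models of CESA1, CESA3, CESA7 and CESA10 overlap a protein-coding neighbour on the opposite strand by 28 to 89 bases. CESA8 shares 481 bases with AT4G18770 on the opposite strand, and that neighbour had only 22 reads in mp clv3 and 32 in clv3. CESA4 overlaps AT5G44020 by 17 bases on the same strand. That neighbour had 22 reads in mp clv3 and 1889 in clv3, a log2 ratio of -6.47. CESA4 also overlaps AT5G44040 by 65 bases on the opposite strand. AT5G44040 had 2459 reads in mp clv3 and 4751 in clv3, a log2 ratio of -0.99 beside -1.12 for CESA4. The part of either neighbour in the CESA4 value was not tested. The libraries were made strand-specific, but whether strand was used in counting is not given in the sources used here.

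The order of levels was the same in both genotypes, with CESA3 first, then CESA1, CESA6, CESA5, CESA2, CESA4, CESA8, CESA7, CESA9 and CESA10. Levels are the authors' deposited RPKM, reads scaled to the length of the gene model and to the column total, so they can be compared between genes. In mp clv3 the levels of CESA6 and CESA5 did not differ beyond their counting intervals, and neither did those of CESA7 and CESA9. In clv3 every neighbour in the order was separated from the next, CESA6 standing 1.54-fold above CESA5 and CESA7 1.83-fold above CESA9. The lowest primary wall level above CESA9, that of CESA2, was 7.94 times that of CESA4 in mp clv3 and 3.48 times in clv3.

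**Figure D1:**
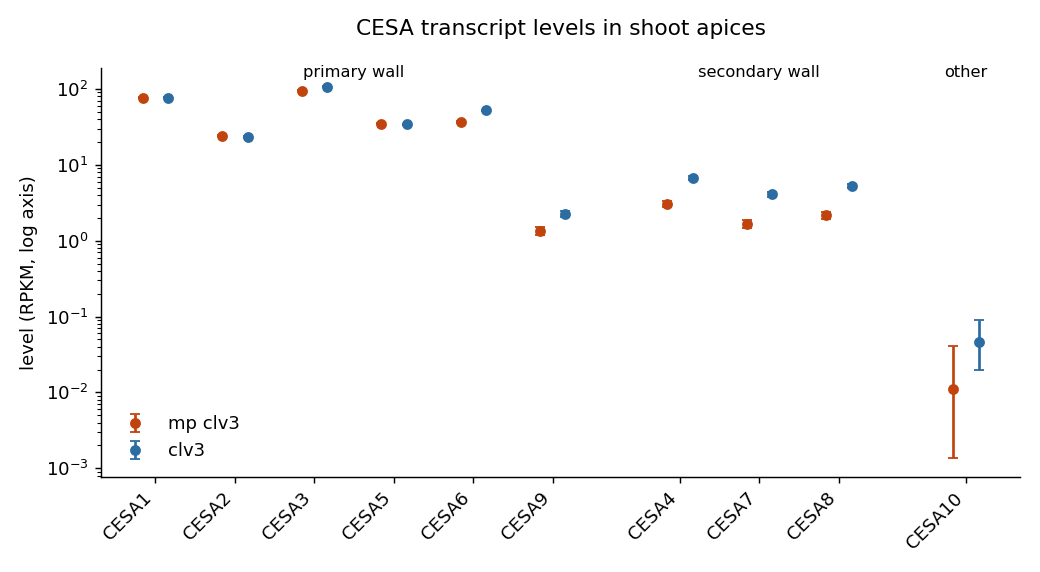
Level of each CESA gene in RPKM on a log axis, with mp clv3 (left point) and clv3 (right point) for each gene, grouped by wall type; bars are exact 95% Poisson intervals on read pairs, which cover counting error only. The 3 secondary wall genes lie between 1.67 and 3.07 RPKM in mp clv3 and between 4.12 and 6.69 RPKM in clv3, and CESA10 lies far below the rest in both.

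CESA1 and CESA3, the subunits that every primary wall complex needs, had the most abundant transcripts of the family. CESA1 (AT4G32410) had 30989 reads and 76.6 RPKM in mp clv3, against 30005 reads and 76.4 RPKM in clv3. Its log2 ratio was 0.0038 (interval of the ratio itself 0.980 to 1.03), and its FDR in the authors' deposited table was 0.770. CESA3 (AT5G05170, CEV1) had 35872 reads and 95.4 RPKM in mp clv3, against 39218 reads and 107 RPKM in clv3. This is 1.13-fold lower (interval 1.10 to 1.15), and its FDR in the authors' deposited table was 5.6e-59. CESA3 stood above 95.1% of all measured genes in mp clv3 and above 95.9% in clv3, so it was among the abundant transcripts of both apices.

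The CESA6-like genes moved in different directions. CESA6, whose loss gives short hypocotyls in dark-grown seedlings (AT5G64740), had 15529 reads and 36.6 RPKM in mp clv3, against 21585 reads and 52.4 RPKM in clv3, 1.43-fold lower (interval 1.39 to 1.47.) CESA9, known from seed coat cells (AT2G21770), had 460 reads and 1.35 RPKM in mp clv3, against 747 reads and 2.25 RPKM in clv3, 1.67-fold lower (interval 1.42 to 1.98.) The intervals of these genes overlap, so CESA9 is not shown to have fallen further than CESA6.

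CESA2 and CESA5 were marginally higher instead. CESA2 (AT4G39350) had 9668 reads and 24.4 RPKM in mp clv3, against 8954 reads and 23.3 RPKM in clv3, a ratio of 1.05 (interval 1.01 to 1.09.) CESA5 (AT5G09870), also needed for seed coat mucilage, had 12672 reads and 35.1 RPKM in mp clv3, against 11958 reads and 34.1 RPKM in clv3. Its FDR in the authors' deposited table was 0.0318, but its ratio of 1.03 had an interval on read pairs from 0.993 to 1.07, which includes 1.

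CESA6 therefore took a smaller share of the CESA6-like transcripts in mp clv3. It made up 37.6% of their summed RPKM in mp clv3 and 46.8% in clv3. CESA5 made up 36.0% in mp clv3 and 30.4% in clv3, CESA2 made up 25.0% in mp clv3 and 20.8% in clv3, and CESA9 made up 1.38% in mp clv3 and 2.01% in clv3. These shares are quotients within a column, which a single scaling factor per column leaves as they are.

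Summed over each position of the primary wall complex, the levels were less uneven than those of single genes. CESA6-like genes together had 97.4 RPKM in mp clv3 and 112 RPKM in clv3, near the level of CESA3 in each. They made up 36.1% of the primary positions in mp clv3 and 37.8% in clv3. CESA3 made up 35.4% in mp clv3 and 36.3% in clv3, and CESA1 with CESA10 made up 28.5% in mp clv3 and 25.9% in clv3. All 6 primary wall genes summed to 269 RPKM in mp clv3 and 296 RPKM in clv3.

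**Figure D2:**
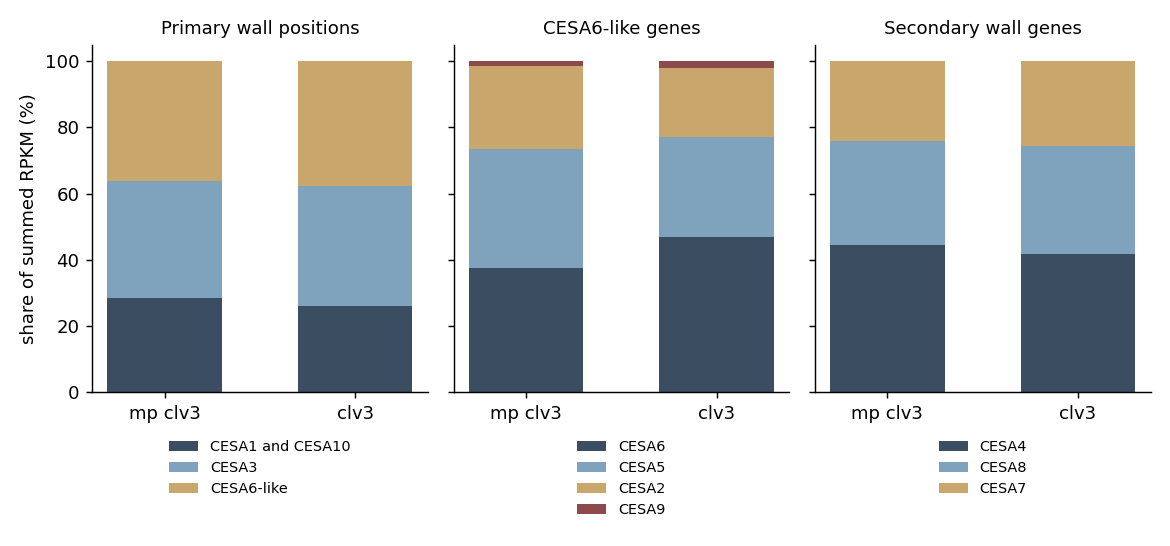
Shares of summed RPKM in percent, with mp clv3 (left bar) and clv3 (right bar) in each panel: the positions of the primary wall complex, the CESA6-like genes and the secondary wall genes. CESA6 takes 37.6% of the CESA6-like sum in mp clv3 and 46.8% in clv3, while the secondary wall shares differ by under 3 percentage points.

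Transcripts of CESA4, CESA7 and CESA8, the subunits of the secondary wall complex, fell together. CESA4 (AT5G44030) had 1072 reads and 3.07 RPKM in mp clv3, against 2266 reads and 6.69 RPKM in clv3, 2.18-fold lower (interval 1.96 to 2.42.) CESA7 (AT5G17420, IRX3) had 581 reads and 1.67 RPKM in mp clv3, against 1393 reads and 4.12 RPKM in clv3, 2.47-fold lower (interval 2.15 to 2.84.) CESA8 (AT4G18780, IRX1) had 725 reads and 2.16 RPKM in mp clv3, against 1710 reads and 5.24 RPKM in clv3, 2.43-fold lower (interval 2.15 to 2.75.) All of these intervals overlap, so no difference in response between the secondary wall genes is shown. In the authors' deposited table the FDR was 7.0e-104 for CESA4, 2.8e-81 for CESA7 and 1.1e-96 for CESA8.

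Their proportions to each other were close in both genotypes. CESA4 made up 44.5% of the secondary wall RPKM in mp clv3 and 41.7% in clv3, CESA8 made up 31.3% in mp clv3 and 32.7% in clv3, and CESA7 made up 24.2% in mp clv3 and 25.7% in clv3. The secondary wall sum was 6.90 RPKM in mp clv3 and 16.1 RPKM in clv3. Set against the primary wall sum it was 2.56% in mp clv3 (interval 2.42% to 2.71%), and 5.43% in clv3 (interval 5.22% to 5.64%). These intervals cover the counting error of the secondary wall reads alone. The balance of the classes thus differed 2.12-fold between genotypes, a value that a single scaling factor per column leaves as it is.

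The secondary wall ratios of mp clv3 over clv3 were set against those of the primary wall genes through their intervals. The upper limits for CESA4 (0.509), CESA7 (0.465) and CESA8 (0.466) lie below the lower limits for CESA1, CESA2, CESA3, CESA5 and CESA6, the lowest of which is 0.678 for CESA6. The interval of CESA9, which starts at 0.505, overlaps that of CESA4 but not those of CESA7 and CESA8. The median log2 ratio was -1.28 for the secondary wall genes and -0.08 for the primary wall genes, beside -0.11 for all 27322 genes. Among the 19424 genes with at least 100 reads in the higher column, 13.5% had a log2 ratio below that of CESA4, 11.4% below that of CESA7 and 11.6% below that of CESA8.

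CESA10 (AT2G25540) was barely detected. It had 4 reads in mp clv3 and 16 in clv3, which is 0.0112 RPKM in mp clv3 and 0.0463 RPKM in clv3. In mp clv3 this is under the floor of 6 reads (3 read pairs) used here as the limit that a count of 0 allows. The FDR in the authors' deposited table was 0.00600, but the ratio of 0.243 had an interval on read pairs from 0.0251 to 1.22, which includes 1. A difference of CESA10 between genotypes was not detectable at this depth.

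**Figure D3:**
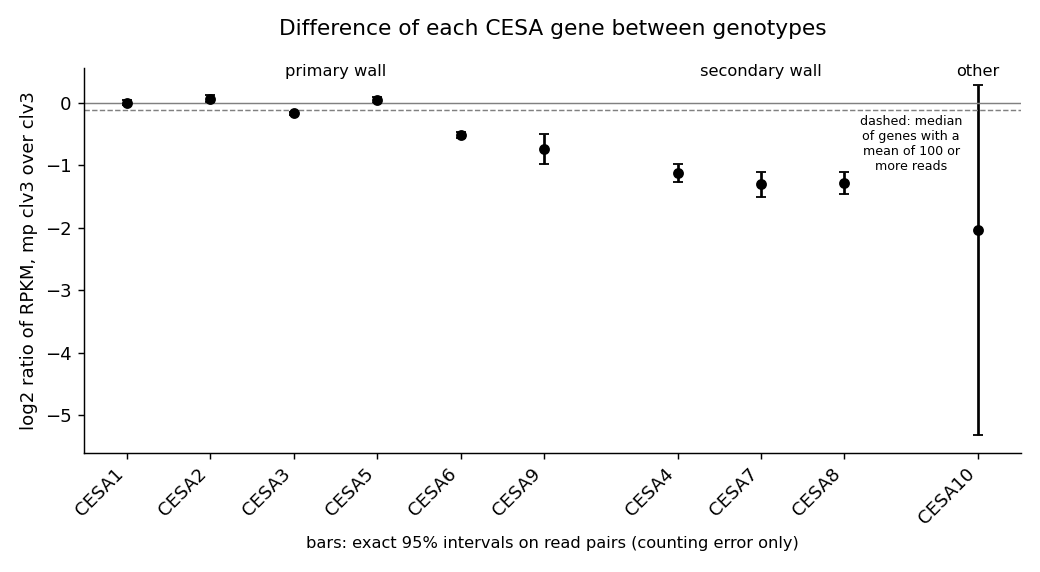
Log2 ratio of RPKM, mp clv3 over clv3, for each CESA gene grouped by wall type, with exact 95% intervals on read pairs that cover counting error only. The solid line marks 0 and the dashed line the median of -0.12 over genes averaging 100 reads or more; CESA4, CESA7 and CESA8 lie between -1.30 and -1.12.

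Motifs were searched for on both strands in the 250 bases before the annotated start of each gene in RefSeq (TAIR10.1), because MP binds DNA at short auxin response elements. TGTCTC and TGTCGG are sequences that auxin response factors such as MP can bind. A match is shown in capitals within 30 bases, read 5′ to 3′ in the direction of the gene, and appears as its complement (GAGACA or CCGACA) where it lies on the other strand.
CESA6: acctaaagtttaGAGACAaaataaaatgtt
CESA8: tgccgctggttaGAGACAaagaacatgtgt
CESA9, first match: tcttttctaattTGTCTCcagaagttttac
CESA9, second match: acttcagattttTGTCTCccgtatagtttt
CESA1: attttgagtccaCCGACAggtgatagcaaa
CESA3: aagttttattttTGTCGGcaaatacttttt
In TAIR10.1 these windows lie at chr5:25880796-25880825 on the plus strand (CESA6), chr4:10316992-10317021 on the minus strand (CESA8), chr2:9284222-9284251 and chr2:9284328-9284357 on the plus strand (CESA9), chr4:15646901-15646930 on the minus strand (CESA1) and chr5:1535739-1535768 on the minus strand (CESA3). TGTCTC was found before 3 of the 10 genes (CESA6, CESA8 and CESA9), beside 10.9% of 27443 protein-coding genes. TGTCGG was found before 2 of the 10 (CESA1 and CESA3), beside 4.16%. Of the 3 secondary wall genes, CESA8 alone held either sequence in this window. Whether MP acts on any of these genes was not tested. A match is a description of letters and not a binding site.

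Motifs known from promoters of secondary wall genes were searched for in the same windows. The tracheary element regulating element, marked in capitals here, was found before CESA4 alone, 20 bases before the annotated start and beside 0.368% of all genes. It lies at chr5:17714360-17714389 on the plus strand in TAIR10.1, a window that also falls inside the gene model of AT5G44020.
CESA4: tacataataaCTTGAAAGCTActctaagtt
The secondary wall MYB-responsive element was searched in its 8 forms, which read ACC, then A or T, then A, then A or C, then C or T. At least 1 form was found before CESA1, CESA4, CESA5 and CESA9, which is 4 of the 10 genes, beside 29.4% of all genes. None of these motifs was found before CESA2, CESA7 and CESA10.

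Transcripts of proteins that work with the secondary wall complex were lower, as those of its subunits were. In the authors' deposited table all 4 genes of this list were lower, 3 of them at least 2-fold. Of all genes, 46.3% were lower there, and 18.5% were lower by at least 2-fold. The list's median was -1.44 on the log2 scale, beside -0.11 for all genes. CTL2, a chitinase-like protein of secondary walls, had 2.15 RPKM in mp clv3 and 7.44 RPKM in clv3, 3.46-fold lower (interval 2.85 to 4.22.) TED6 and TED7, membrane proteins that bind the secondary wall CESA complex, were 2.76-fold and 2.68-fold lower. COBL4 (IRX6), a COBRA-like protein of secondary walls, was 1.71-fold lower (interval 1.45 to 2.02.)

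Partners of the primary wall complex differed by less than 2-fold in either direction. The authors' deposited table calls 10 of 14 such genes lower and 2 higher, beside 46.3% of all genes lower and 26.4% higher. The list median was -0.25 (log2), beside -0.11 for all genes. CSI3, CSI2 and COB were 1.68-fold, 1.52-fold and 1.40-fold lower. CSI1, which links the complex to microtubules and to which CSI2 and CSI3 are related, had 29.9 RPKM in mp clv3 and 30.4 RPKM in clv3, and its FDR in the authors' deposited table was 0.122. CTL1 (POM1), the relative of CTL2 in growing cells, was 1.13-fold lower, which matches CESA3 in size. KOR1 (GH9A1), a membrane endoglucanase needed for cellulose synthesis, was higher, with 157 RPKM in mp clv3 and 121 RPKM in clv3, a ratio of 1.30 (interval 1.27 to 1.33.)

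Xylan enzymes, which make another main polymer of secondary walls, were split. The authors' deposited table calls 7 of 12 lower and 3 higher, beside 46.3% of all genes lower and 26.4% higher. The list median was -0.28 (log2), beside -0.11 for all genes. GUX2 (PGSIP3), which adds glucuronic acid to xylan, had 16 reads in mp clv3 and 160 in clv3, 10.3-fold lower (interval 4.98 to 24.7.) IRX9, of the xylan backbone, was 2.89-fold lower. IRX7 (FRA8) was higher instead, with 242 reads in mp clv3 and 76 in clv3, a ratio of 3.09 (interval 2.13 to 4.58.)

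Regulators of secondary wall genes went in both directions. The authors' deposited table calls 8 of 14 secondary wall transcription factors lower and 3 higher, beside 46.3% of all genes lower and 26.4% higher. Without SND1, which had almost no reads, their median log2 ratio was -0.80, beside -0.11 for all genes. VND7, a master switch of vessel formation, had 195 reads in mp clv3 and 62 in clv3, a ratio of 3.05 (interval 2.02 to 4.73.) MYB46, which activates secondary wall genes directly, had 308 reads in mp clv3 and 133 in clv3, a ratio of 2.25 (interval 1.68 to 3.04.) Its close relative MYB83 had 32 reads in mp clv3 and 142 in clv3, 4.57-fold lower (interval 2.63 to 8.43.)

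The other regulators named here were lower or hardly present in mp clv3. VND6, related to VND7, had 72 reads in mp clv3 and 122 in clv3, 1.75-fold lower. KNAT7, a homeobox regulator of wall thickening, was 4.29-fold lower. NST1, a regulator of fibre walls, had 2 reads in mp clv3 and 106 in clv3, a ratio of 0.0183 (interval 0.000455 to 0.107.) SND1, its partner in fibres, had 0 reads in mp clv3 and 2 in clv3, so no fold is given.

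**Figure D4:**
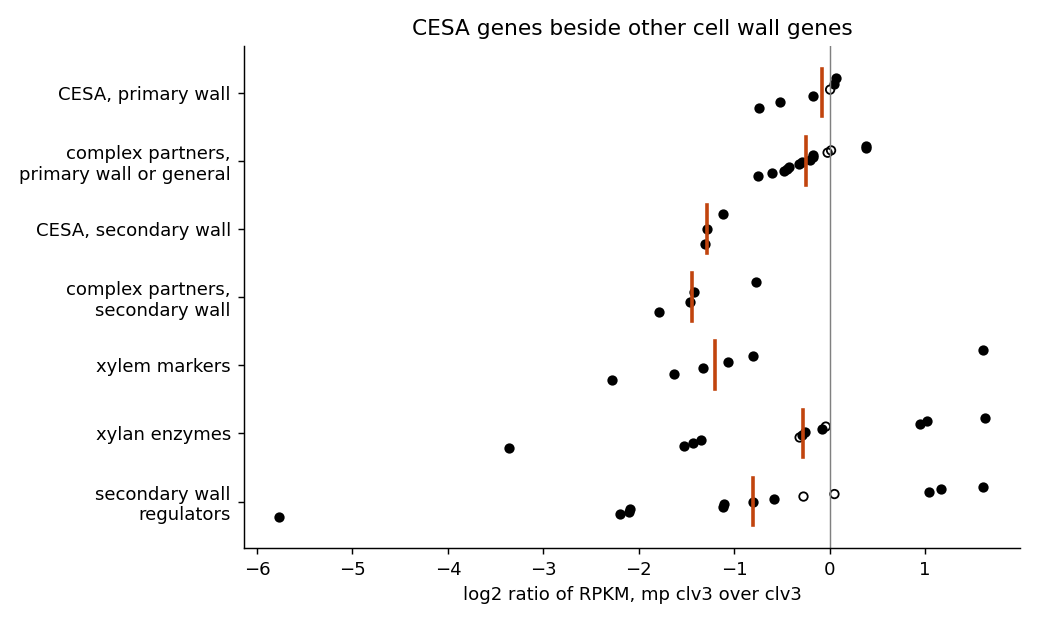
Log2 ratio of RPKM, mp clv3 over clv3, for CESA genes and other cell wall genes with at least 20 reads in either column, which leaves out SND1; CESA10, with 4 and 16 reads, is not drawn. Filled points have an FDR under 0.05 in the authors' deposited table, open points do not, and vertical bars are medians of the points drawn. The medians lie at -1.28 for the secondary wall CESA genes and -1.44 for their partners, while xylan enzymes and secondary wall regulators spread to both sides of 0.

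Markers of several cell types moved beside these values. The authors' deposited table calls 5 of 6 xylem markers lower, VND7 being the exception, beside 46.3% of all genes lower. VND6 and VND7 were also counted among the secondary wall transcription factors. The summed level of the xylem markers was 25.1 RPKM in mp clv3 and 69.0 RPKM in clv3, with none at 0. LAC4 (IRX12), a lignin laccase, was 4.87-fold lower and XCP2, a xylem peptidase, 3.10-fold lower. The 4 phloem markers were all lower and summed to 40.6 RPKM in mp clv3 and 59.2 RPKM in clv3, led by SUC2, APL and SEOR2. In bulk apices, fewer cells of a type and less RNA per cell cannot be told apart.

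Floral and surface tissue also differed. The authors' deposited table calls all 9 tapetum and pollen wall markers lower, beside 46.3% of all genes. Their summed level was 13.6 RPKM in mp clv3 and 744 RPKM in clv3. Nearly all of the mp clv3 sum came from LAP6, with 13.4 RPKM in mp clv3 and 167 RPKM in clv3, 12.5-fold lower. MS2 and DYT1 had 0 reads in mp clv3, AT5G07230 had 2 reads in mp clv3 and 8430 in clv3, and CYP704B1 had 3 reads in mp clv3 and 9077 in clv3. Carpel, ovule and seed coat markers were lower in 7 of 8 cases, and in 5 with at least 100 reads asked for. They summed to 33.6 RPKM in mp clv3 and 53.9 RPKM in clv3. Most of each sum came from MUM4 and SHP1, which were 1.26-fold and 1.30-fold lower. STK had 0 reads in mp clv3 and 377 in clv3, SHP2 was 13.9-fold lower and BEL1 5.01-fold lower. INO had 0 reads in mp clv3 but only 10 in clv3, and the interval of its ratio reaches 1.06. The 4 epidermis markers were all lower, at 340 RPKM in mp clv3 and 965 RPKM in clv3, with PDF1 3.23-fold, FDH 2.37-fold and PDF2 1.84-fold lower. Of the 4 shoot meristem markers, STM, WUS and CLV1 were higher and KNAT1 lower, beside 26.4% of all genes higher and 46.3% lower. These markers summed to 291 RPKM in mp clv3 and 168 RPKM in clv3. Most of each sum was STM, with 217 RPKM in mp clv3 and 98.8 RPKM in clv3. The part of these cell types in the CESA values was not tested.

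The columns held 103347441 reads for mp clv3 and 100328819 for clv3. MP itself had 14.5 RPKM in mp clv3 and 74.8 RPKM in clv3, and CLV3 had 15.8 RPKM in mp clv3 and 1.40 RPKM in clv3. If the median gene, among those averaging 100 reads or more, is placed at 0, every log2 ratio shifts up by 0.12. CESA1 then becomes higher in mp clv3, at 0.13, and CESA3 stays lower at -0.05. CESA2 and CESA5 stay higher, at 0.19 and 0.16, with intervals above 0. CESA4, CESA6, CESA7, CESA8 and CESA9 keep their direction and their intervals exclude a ratio of 1.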

How the data were processed

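Poly(A) RNA of 4 libraries was sequenced in strand-specific pairs of 100 bases, per the labels' protocols; tools and build listed, per the submitters' processing notes, are BWA, CASAVA 1.7 and TAIR10. The authors deposited read counts per gene in 1 column per genotype, with 0.5 for 0, which was read as 0. The RPKM, the log2 ratio (mp clv3 over clv3) and the FDR, an adjusted p-value, are also the authors' deposited values. How libraries were combined, and the test used: not stated in the labels or the header. Of 27323 rows, 1 with displaced cells was left out.

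Counts from 1 to 9 were even in 82.5% (mp clv3) and 83.3% (clv3) of cases, so ratio intervals (exact Clopper-Pearson, 95%) and level intervals (exact Poisson) used pairs (the read count over 2). The planned edgeR and DESeq2 fits need values per library and were not run. Interval code was tested on simulated counts. PCR copies are not independent molecules.

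Sequences and gene models came from RefSeq (TAIR10.1) and were matched by locus identifier; the files hold no coordinates. A table of promoters or of proteins was not used here, so windows of 250 bases, shorter than planned, and coding sequences stood in. RefSeq names 114 of 125 listed genes by the symbols used.

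Members and lists were chosen with earlier results of these data known. All CESA genes were named, and in each list the 3 largest log2 ratios among genes of 100 reads or more that passed an FDR of 0.05, plus preset partners and regulators. DYT1, LAP6, INO, MUM4, SHP1, CLV1, SUS2, SUS5 and SUS6 were named outside that rule, after their values were seen. Python 3.11.15, scipy 1.17.1, pandas 2.3.3 and Biopython 1.88 were used.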

Additional observations from a re-analysis of the deposited data

How the results depend on the processing

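No paired analysis was possible because the columns, 1 for mp clv3 and 1 for clv3, carry no replicate numbers. This also kept edgeR, DESeq2 and leaving out a library from being run. Of 76 values of CESA genes recomputed another way, 66 held in direction and call, among them 20 with a pseudocount, which leaves the authors' FDR in place. With the median gene, among those averaging 100 reads or more, placed at 0, CESA1 came to 0.13 with an interval above 0. The interval of CESA5 included 0 on read pairs and under quantile normalization (0.041 in both). That of CESA10 did so on read pairs (-2.04), under the median setting (-1.92) and with totals without the 100 genes with most reads (-2.01), since it has few reads. Quantile normalization turned CESA10 to 0.91, and the cause was not tested. Summing the reads of close relatives turned CESA2 and CESA5 to -0.22 (with CESA6 and CESA9) and CESA10 to 0.0032 (with CESA1), since CESA6 and CESA1 hold the most reads of each sum. Per residue of coding sequence, secondary wall reads were 2.35% of primary wall reads in mp clv3 and 4.97% in clv3, and the order of all 10 levels was kept in both. Read-pair intervals, chosen as a call after the data were seen, left 1 CESA gene higher. Asking for at least 2-fold left 0 CESA genes higher and 4 lower, and 2549 and 5044 of all genes. Leaving out CESA10 left 6 lower. Of 84 list values, 81 stayed; with at least 100 reads, the CSLD family had 1 lower member and a median of 0.56 against -0.30, and the CSLB, CSLE and CSLG median turned to 0.0502 under the median setting.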

Other observations

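The cellulose synthase-like (CSL) families, relatives of the CESA genes, moved in separate ways. The CSLD family acts in tip growth and at the cell plate. The authors' deposited table calls 3 of its 6 genes higher and 3 lower, beside 26.4% of all genes higher and 46.3% lower. CSLD2 had 30.5 RPKM in mp clv3 and 15.6 RPKM in clv3, a ratio of 1.95 (interval 1.87 to 2.04), and CSLD1 had 139 reads in mp clv3 and 54 in clv3. CSLD5 was 1.68-fold lower, with 36.5 RPKM in mp clv3 and 61.5 RPKM in clv3. The CSLA genes (mannan) and CSLC genes (xyloglucan backbone) numbered 14. The authors' deposited table calls 9 of them lower and 2 higher, beside the same shares of all genes. CSLA1 had 0 reads in mp clv3 and 2199 in clv3, and the exact interval of this fold starts at 307. CSLA3 was 4.70-fold and CSLA15 1.94-fold lower. In the CSLB, CSLE and CSLG list, CSLB3 had 2 reads in mp clv3 and 225 in clv3 and CSLB4 was 5.52-fold lower, while CSLG2 had a ratio of 1.23.

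Sucrose synthases, which split sucrose into fructose and the UDP-glucose that cellulose synthase uses, numbered 6. The authors' deposited table calls 3 of them higher and none lower, beside 26.4% of all genes higher and 46.3% lower. SUS1 had 574 RPKM in mp clv3 and 36.7 RPKM in clv3, a ratio of 15.6 (interval 15.2 to 16.1.) SUS4 had 6596 reads in mp clv3 and 61 in clv3, a ratio of 105 (interval 73.6 to 155), and SUS3 had a ratio of 4.28. SUS2, SUS5 and SUS6 had log2 ratios between -0.24 and -0.09, and none of these passed the threshold.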
